A study of Schizosaccharomyces pombe with 4 samples.

Results

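The fission yeast annotation holds many transcribed regions that code for no protein and have never been given a name of their own. The regions described here are 559 such unnamed ncRNA genes of *Schizosaccharomyces pombe*. They were taken as the entries of type ncRNA gene that carry only a systematic identifier and share under 50 nt with every protein-coding gene on the opposite strand. They make up 559 of 818 unnamed ncRNA genes, of 1522 ncRNA genes in all, and of 9139 annotated features other than coding sequences. Of the 559, 526 share no base with a protein-coding gene on the other strand and 33 share 1 to 48 nt.

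The data are NET-Seq libraries, in which the RNA still held by RNA polymerase II (RNAPII) is isolated and the 3′ ends of the nascent transcripts are sequenced. Libraries of both kinds came from the strain YAM2507 (Rpb3-flag exo2-delta), grown exponentially. Nascent (IP) libraries were made after purification of RNAPII through its tagged subunit Rpb3, and input libraries from the same cultures by the same steps without that purification. There are 2 biological replicates of each. Both the IP and the input therefore carry the deletion of *exo2* and the Flag tag, and WT cells were not analysed here. The longest coding exon of *exo2* was read at low density, with 0.0113 and 0.0104 normalized reads per nt (IP) and 0.00212 and 0.0021 (input).

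Eukaryotic genomes are transcribed well beyond their genes, and much of this RNA is capped, unstable and degraded soon after it is made. Exo2 is the cytoplasmic 5′-3′ exoribonuclease that removes a large share of it in fission yeast, and the transcripts it degrades are known as XUTs. Annotated ncRNA genes of unknown role can be independent transcription units, extensions of a neighbouring mRNA, small RNAs such as snoRNAs that had not been recognised, or transcripts made only in meiosis or under stress. The IP is meant to report how much RNAPII is engaged on a region, whereas the input reports the RNA that is present. How much finished RNA is carried over into the IP was not measured.

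The IP libraries hold 3338808 and 6962801 reads over all features, and the input libraries 10172688 and 9114952. A single read counts as 1 and 0.474 in the normalized values of the IP replicates, and as 0.318 and 0.357 in those of the input. Transfer RNA genes hold 7.18 and 6.80% of the normalized IP reads and 73.9 and 75% of the normalized input reads, so the deposited scale places nearly every other feature higher in the IP. Depth set the limit for most unnamed ncRNA genes, since 10 or more reads were counted at only 206 and 289 of the 559 for the IP and at 109 and 90 for the input. Between replicates, the log2 density had a Pearson's r of 0.973 over 200 members in the IP and of 0.991 over 83 members in the input, where members with 10 or more reads in both replicates were taken and r is across regions.

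Among the members, 160 share at least 1 nt on their own strand with another annotated feature, in 139 cases a protein-coding gene. A read there is counted for both features, and these members are called read-sharing below. The other 399 are called free-standing. XUTs, coding sequences and other unnamed ncRNA genes were left out of this division, and 61 members overlap another member on the same strand, so that the 559 entries correspond to 528 loci. The members are 56 to 5123 nt long, with a median of 719 nt, against 1886 nt for protein-coding genes. Chromosome strand is uneven, with 399 members on the + strand and 160 on the − strand. This unevenness sits in the older identifiers, since 273 of the 302 members with a number under 600 lie on the + strand, against 126 of the 257 with a higher number.

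Printed first are start regions of densely read free-standing members that were chosen because they hold promoter elements known from other genes. They are not simply the densest ones. SPNCRNA.1444, at a mean IP density of 1.41, is denser than the printed SPNCRNA.893, at 0.864. Neither element described below was found before its start, and it is not printed. SPNCRNA.808 and SPNCRNA.942, which overlap printed members, were also left out. The HomolD box, TGTGACTG on the strand of transcription or its reverse complement, takes the place of a TATA box in ribosomal protein genes of fission yeast. The TATA box was searched as TATAAA on the transcribed strand only. Each sequence runs from 100 bases before to 50 bases after the annotated start, 5′ to 3′ on the strand of the member, and the capitals mark the motif. The coordinates are those of the deposited table, and the bases were read from the RefSeq assembly ASM294v3.
SPNCRNA.507 (chrI:2265796-2265945, − strand): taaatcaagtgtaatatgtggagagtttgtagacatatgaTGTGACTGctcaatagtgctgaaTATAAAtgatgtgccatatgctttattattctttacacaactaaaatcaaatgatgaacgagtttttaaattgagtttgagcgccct
SPNCRNA.242 (chrI:4154260-4154409, + strand): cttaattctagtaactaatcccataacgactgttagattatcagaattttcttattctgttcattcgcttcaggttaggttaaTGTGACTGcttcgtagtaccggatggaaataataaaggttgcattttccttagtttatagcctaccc
SPNCRNA.893 (chrI:3177831-3177980, + strand): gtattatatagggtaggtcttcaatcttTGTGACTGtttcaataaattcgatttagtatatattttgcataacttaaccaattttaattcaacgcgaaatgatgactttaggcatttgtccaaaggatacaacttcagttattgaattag
SPNCRNA.510 (chrI:3850906-3851055, + strand): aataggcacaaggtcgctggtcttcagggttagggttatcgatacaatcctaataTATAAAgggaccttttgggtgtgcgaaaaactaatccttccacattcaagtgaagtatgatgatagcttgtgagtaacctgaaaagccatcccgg
SPNCRNA.515 (chrII:3962590-3962739, + strand): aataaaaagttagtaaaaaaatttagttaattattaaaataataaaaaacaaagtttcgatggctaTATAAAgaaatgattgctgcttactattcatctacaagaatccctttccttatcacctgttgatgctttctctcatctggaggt
In SPNCRNA.507, the HomolD box begins 60 bases and the TATA box 37 bases before the annotated start. The TATA box begins 45 bases before the start of SPNCRNA.510 and 34 bases before that of SPNCRNA.515. The HomolD box begins 72 bases before the start of SPNCRNA.893 and 17 bases before that of SPNCRNA.242.

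Over all members, these motifs were about as frequent as before protein-coding genes. A HomolD box lay in the 100 bases before 9 of the 559 members (1.61%), against 1.54% of protein-coding genes. TATAAA lay there in 12.2% of the members and 12.6% of protein-coding genes. Of the 9 members with a HomolD box, 4 are among the 14 with the highest IP density. These are SPNCRNA.507, SPNCRNA.242, SPNCRNA.893 and SPNCRNA.808, and SPNCRNA.808 overlaps SPNCRNA.507 and has the same box. TATAAA was found before 6 of those 14 (42.9%), against 60 of the 517 members (11.6%) at or below the density of the median protein-coding gene. The 6 include the overlapping pairs SPNCRNA.507 with SPNCRNA.808 and SPNCRNA.510 with SPNCRNA.942, and the members of a pair have the same TATA box, so that 4 boxes stand behind the 6. The set of 14 was defined by its density, so these shares are a description.

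IP reads over the unnamed ncRNA genes were few but seen at most of them. For the median member, 0.00732 and 0.00812 normalized reads per nt were counted from IP replicates 1 and 2, and 0.000742 and 0.000635 from the input. The median protein-coding gene had 0.0866 and 0.0835 in the IP, and 0.0162 and 0.0140 in the input. The median member also lay below the longest coding exon of the deleted gene *exo2*. That exon had 0.0113 and 0.0104 in the IP, and 0.00212 and 0.0021 in the input. Whether reads at such low levels come from transcription of the member was not tested. Of the members, 42 (7.51%) exceeded the IP density of the median protein-coding gene, which was 0.0853, and 14 exceeded that of 90% of protein-coding genes, which was 0.321. Together the members took 0.541 and 0.603% of the normalized IP reads and 0.166 and 0.139% of the normalized input reads. A few regions held much of this, since the 10 members with the most reads in each library held 43.7 and 48.6% of the members' reads in the IP, and 70.4 and 68.4% in the input. Reads on overlapping members count for each of them in these shares. Each library came from a bulk culture, in which fewer cells transcribing a region and less transcription per cell cannot be told apart.

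**Figure D1:**
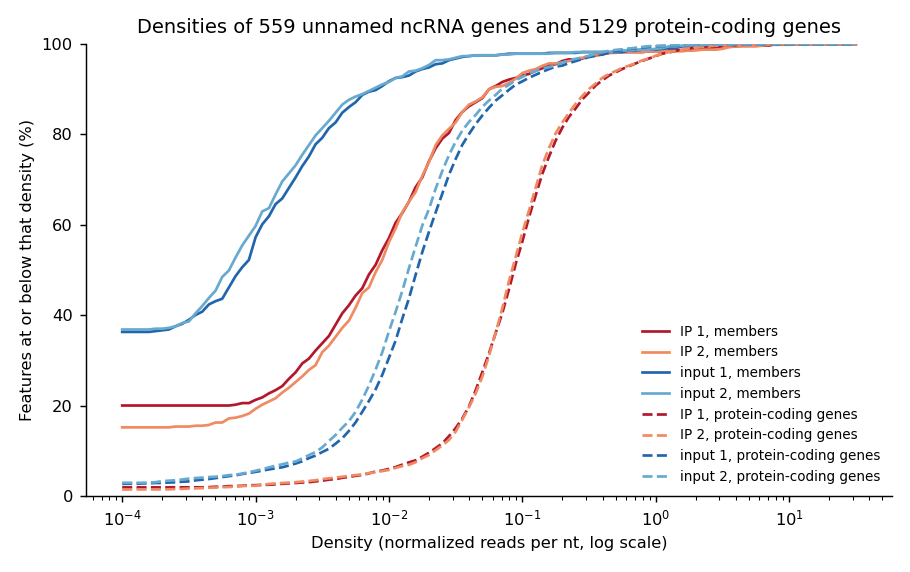
Cumulative share of features (y axis, %) at or below a density (x axis, normalized reads per nt, log scale), for the 559 unnamed ncRNA genes (solid lines) and 5129 protein-coding genes (dashed lines), with a line for each library. The members' curves lie to the left of those of protein-coding genes in every library, with medians of 0.00732 and 0.00812 in the IP against 0.0866 and 0.0835, and the curves of replicates lie close together.

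Neighbouring kinds of non-coding feature lay at similar levels. The mean IP density of the median feature was 0.00773 for the members, 0.0104 for the 259 unnamed ncRNA genes that lie antisense to a protein-coding gene, 0.00971 for 704 named ncRNA genes and 0.00829 for 433 XUTs without an antisense gene. The 57 annotated snoRNA genes, which code for guides of rRNA modification, had a median of 5.08. The differences between these medians were not tested.

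No read at all was found at some members. In the IP, 112 and 85 members had 0 reads, in the input 203 and 206, and 65 had 0 reads in all 4 libraries. The authors kept reads that map to 1 place in the genome, and 37 members have under 50% of their 50-mers unique in the genome. Of the 65 without a read, 33 are among these repeated regions. A further 31 are fully unique, and 22 of these are under 300 nt long. For the unique ones, 0 reads allows up to 3 reads in each library.

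The distance to the nearest protein-coding gene went with the IP density. Only the members that touch a gene had medians above the densities of the *exo2* exon, 0.0113 and 0.0104 in the IP. In order of the gap, median IP densities in replicates 1 and 2 were 0.0182 and 0.0174 for 169 members that touch a gene, 0.00942 and 0.0102 for 97 members at 1 to 100 nt, 0.00447 and 0.00648 for 117 at over 100 and up to 300 nt, 0.00408 and 0.00404 for 114 at over 300 and up to 1000 nt, and 0 and 0 for 62 farther away. Median input densities fell in the same order, with 0.00221 and 0.00201 at a gap of 0, 0.000904 and 0.000649 at 1 to 100 nt, 0.000439 and 0.00047 up to 300 nt, 0.000381 and 0.000381 up to 1000 nt, and 0 beyond. Over all members, those that touch a gene were thus read most densely in both replicates. Only 27 of these 169 are free-standing, and at the others the reads of the shared feature are counted too. The farthest group holds 33 members without any read, many of them repeated. Among the 356 free-standing members whose 50-mers are all unique, those touching a gene did not stand above those at 1 to 100 nt. Mean IP densities were 0.00858, 0.0088, 0.00657, 0.00473 and 0.00194 from the nearest to the farthest group. Across these 356 members, Spearman's rho between gap and IP density was −0.28, as a description of regions that share libraries and neighbours.

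The orientation classes differed mainly through overlap. The 141 members that overlap a gene on the same strand had median IP densities of 0.0223 and 0.0194, and input densities of 0.00246 and 0.00215. Reads of the gene itself are counted in these. Convergent members (51), whose 3′ end faces the 3′ end of the gene, had 0.00932 and 0.00757 in the IP, and divergent members (185), which start near the start of a gene on the other strand, had 0.00515 and 0.00648. Members that lie before a gene on its own strand (126) had 0.00475 and 0.00542. Members that lie after a gene on its strand (56) had 0 and 0.00201, but 22 of these had no read in any library. Over the free-standing and fully unique members alone, the mean IP densities were 0.00941 for 42 convergent, 0.0057 for 164 divergent, 0.00574 for 116 members before a gene and 0.00663 for 34 members after a gene. The divergent members and those before a gene differed by less than the replicates of either class.

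**Figure D2:**
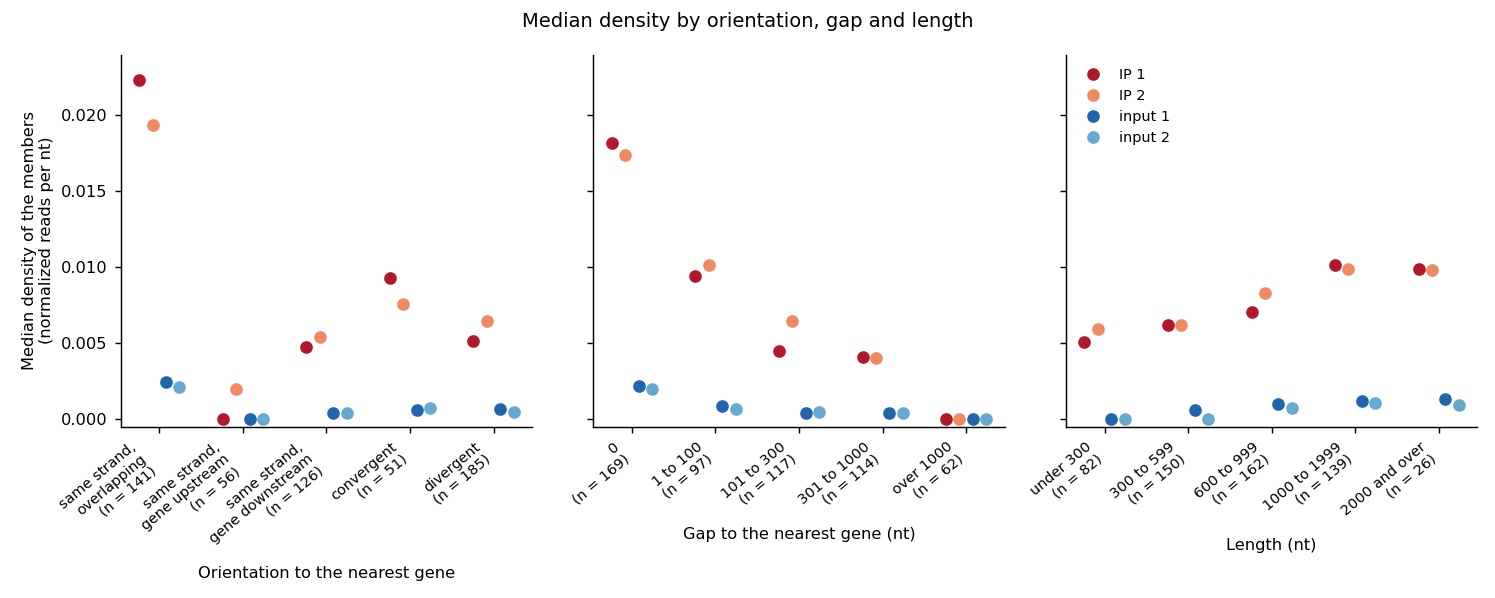
Median density (y axis, normalized reads per nt) of the members by orientation to the nearest protein-coding gene, by gap and by length (x axes), with 1 point for each of the 2 IP and 2 input libraries and the number of members in brackets. Members overlapping a gene on the same strand stand highest, with 0.0223 and 0.0194 in the IP, and those over 1000 nt from a gene have a median of 0.

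Length had a weaker relation to the level. Median IP densities were 0.00511 and 0.00596 for 82 members under 300 nt, 0.00618 and 0.00621 for 150 members from 300 to under 600 nt, 0.00708 and 0.00831 for 162 from 600 to under 1000 nt, 0.0101 and 0.00991 for 139 from 1000 to under 2000 nt, and 0.00987 and 0.00981 for 26 of 2000 nt or more. The short members spread most. Of those under 300 nt, 28 had no read in any library, while the upper quartile of their IP density was at 0.0357, above the upper quartile of every longer group. They include 7 of the 14 densest members.

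The level also differed with the position on the chromosome. The 42 members within 100 kb of a chromosome end had median IP densities of 0.00188 and 0.00277, against 0.00777 and 0.00846 for the other 517, and 15 of the 42 had no read. Among the free-standing and fully unique members, 28 within 100 kb of an end had 0.00286 and 0.0045, against 0.00621 and 0.00668 for the other 328. The 133 members that share 50 nt or more with a XUT on the same strand had 0.0101 and 0.0114 in the IP, against 0.00621 and 0.00663 for the other 426. The 133 are longer, with a median of 955 nt against 637 nt, and 5 of them had no read, against 60 of the 426. XUTs are themselves defined by their accumulation in cells without Exo2, the genotype read here.

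IP density at the members was mostly far below that of the nearest gene. Among the 356 free-standing unique members, the median IP density was 0.00592, against 0.108 for the nearest gene, a median difference of −4.50 on the log2 scale, and 23 (6.46%) were above their gene. For divergent members, Spearman's rho with the level of the gene was 0.0074 over 164 pairs, with −0.094 over the 117 pairs up to 300 nt apart and 0.21 over the 47 farther apart. For members up to 300 nt after a gene on the same strand, rho was 0.54 over 17 pairs, and the median difference was smaller, at −1.85. Both are descriptions across regions.

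To compare the IP with the input, limma was fitted over all 8651 features with a value above 0 in at least 2 libraries, with Benjamini-Hochberg adjustment over all of them. On the deposited scale, 399 of the 462 members tested were higher in the IP and 0 were lower. Of all features tested, 91.6% were higher and 1.43% lower on that scale, so the count says little of the members. At an unadjusted p of 0.05, 400 members passed in either direction, and edgeR and DESeq2 also called 0 members lower. The median protein-coding gene had a log2 IP over input of 2.29 and 2.45 in the replicates. Ratios below are therefore centred on protein-coding genes, in either of 2 ways, except where the deposited scale is named. Medians of groups by length, distance or feature type are given per replicate, after subtracting those 2.29 and 2.45. The limma calls and the ratios of single members, given with an SE, are relative to the median gene level of each library, which subtracts 2.49 and places them 0.12 lower on the log2 scale than the mean of the replicate ratios.

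After centring, 43 members were higher and 28 lower in the IP, relative to the median protein-coding gene, and 391 passed in neither direction. Of all features, 9.21% were higher and 17% lower. Of the 462 members tested, 9.31% were higher and 6.06% lower in this fit. The median log2 fold change over tested members was 0.04, against −0.08 over all features. With TMM scaling in edgeR, 64 of 263 members with enough reads were higher (24.3%) and 24 lower (9.13%), against 15.5% and 19.2% of all features in that fit. Leaving out IP replicate 1 gave 26 higher (5.63%) and 31 lower (6.71%), against 5.46% and 15.5% of all features. Leaving out IP replicate 2 gave 25 higher (5.41%) and 47 lower (10.2%), against 7.12% and 17.2%. The share of higher calls lay near or below that of all features in these 3 limma fits and above it in edgeR.

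**Figure D3:**
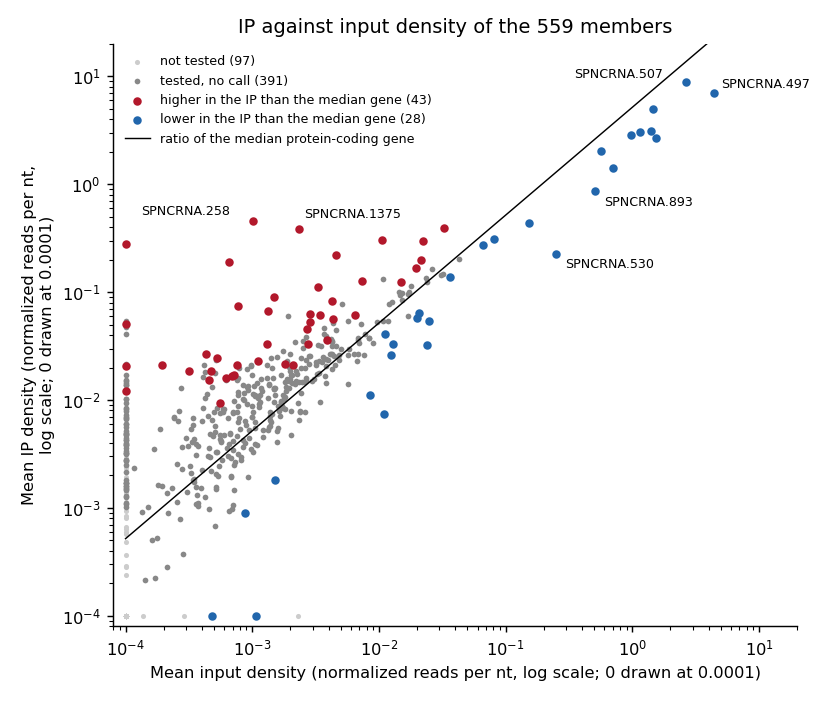
Mean IP density against mean input density of the 559 members (normalized reads per nt, log scales, values of 0 drawn at 0.0001), coloured by the centred limma call. The line gives the median IP over input ratio of protein-coding genes. The 28 lower calls take the dense end of both axes, with a few at very low levels, and the 43 higher calls lie above the line, 24 of them with under 10 input reads.

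The 2 directions fell on different kinds of region. Members called higher had a median length of 878 nt, with medians of 41 and 77 reads in the IP and 4 and 4 in the input. Their ratios thus rest on few input reads, and 24 of the 43 have under 10 input reads summed over both libraries. Members called lower had a median length of 674 nt, with medians of 66.5 and 141 reads in the IP and 107 and 85 in the input. Of the 28, 24 had 10 or more reads in both inputs and 8 were under 300 nt, but SPNCRNA.234 and SPNCRNA.93 were called on 0 reads in both IP libraries against 2 and 1 in the input. Of the calls, 23 of the higher and 16 of the lower are on free-standing members.

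How the ratio went with length depended on the reads asked of the input. Among the 82 members with 10 or more reads in every library, the median centred log2 ratio was −1.03 and −0.94 in replicates 1 and 2 for 9 members under 300 nt, −0.98 and −0.65 for 5 from 300 to under 600 nt, −0.15 and −0.20 for 20 from 600 to under 1000 nt, 0.07 and 0.01 for 36 from 1000 to under 2000 nt, and 0.50 and 0.14 for 12 of 2000 nt or more. This filter leaves out members with little input, such as SPNCRNA.258, SPNCRNA.1375 and SPNCRNA.110, and the 9 shortest include 2 overlapping pairs, SPNCRNA.507 with SPNCRNA.808 and SPNCRNA.510 with SPNCRNA.942. With 10 or more reads asked of the IP libraries alone, a filter chosen after seeing the data, 200 members remained and the order was lost. In the same order of length, their median ratios were then −0.20 and −0.34 for 16 members, 0.92 and 0.81 for 28, 0.56 and 0.42 for 57, 0.31 and 0.48 for 81, and 0.50 and 0.66 for 18. Over the 82, the ratio ran from −2.82 to 2.90 in replicate 1 and from −2.23 to 2.30 in replicate 2, and Spearman's rho with length was 0.37, across regions. The ratio was above 0 in both replicates for 29 members and below 0 in both for 36. By distance there was no such order, with medians of 0.07 and −0.09 for 50 members touching a gene and of −0.57 and −0.89 for 13 at 1 to 100 nt, −0.11 and 0.10 for 11 up to 300 nt, and 0.15 and 0.15 for 6 up to 1000 nt.

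**Figure D4:**
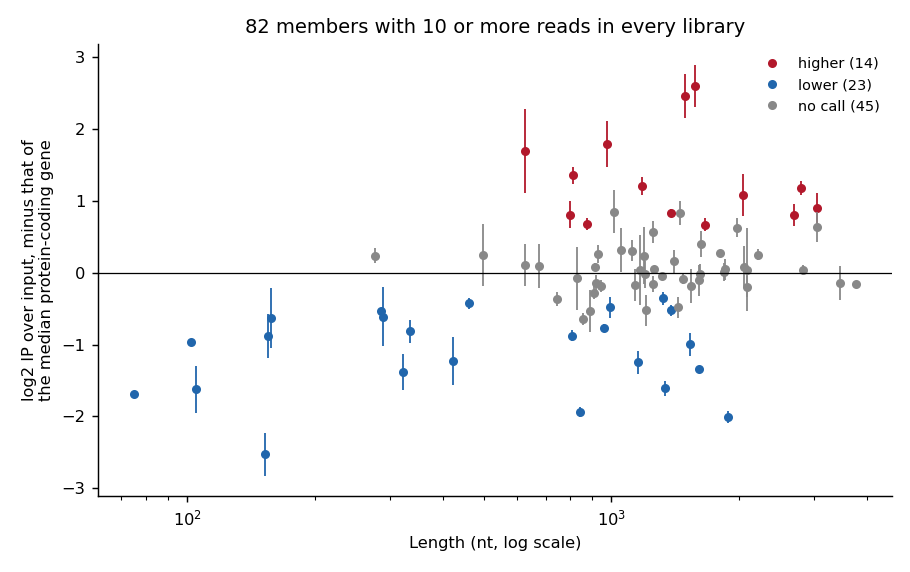
Centred log2 IP over input (y axis, 0 is the median ratio of protein-coding genes in each replicate) against length (x axis, nt, log scale) for the 82 members with 10 or more reads in each library, input included. Points are the mean of 2 replicates and the bars join the replicates. Of the 9 members under 300 nt, 8 are called lower, and the 14 higher calls all lie at 600 nt or more.

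Most of the densest members were short and had a low ratio. How many of their IP reads are finished RNA carried over rather than nascent RNA was not tested. Of the 14 denser than 90% of protein-coding genes, 11 were called lower and 3 higher, 7 are under 300 nt, and 3 are read-sharing. Of all features in that fit, 17% were lower and 9.21% higher, and the share among features of like density was not computed. The 11 include the overlapping pairs SPNCRNA.507 with SPNCRNA.808 and SPNCRNA.510 with SPNCRNA.942, so they are not separate loci. The densest was SPNCRNA.507 (chromosome I, 2265688 to 2265845, − strand, 158 nt), which lies 141 nt after *rpc2*, a subunit of RNA polymerase III. It had 1137 and 3551 reads in the IP and 1517 and 1001 in the input, or 8.92 ± 2.44 and 2.66 ± 0.563 normalized reads per nt (SD, n = 2 each). Its centred log2 IP over input was −0.75 ± 0.17 (SE), with an adjusted p of 0.009 in limma.

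SPNCRNA.808 covers nearly the same bases and is not an independent observation. It had 1159 and 3602 reads in the IP and 1518 and 1001 in the input. The 139 nt that it has beyond SPNCRNA.507 added 22 and 51 reads in the IP, and 1 and 0 in the input, so that nearly all of its reads lie on SPNCRNA.507. The first 159 bases of SPNCRNA.808 (chrI:2265680-2265838, − strand) hold TGATGA and CTGA, the letters of the C and D boxes of snoRNAs, given here in capitals.
SPNCRNA.808: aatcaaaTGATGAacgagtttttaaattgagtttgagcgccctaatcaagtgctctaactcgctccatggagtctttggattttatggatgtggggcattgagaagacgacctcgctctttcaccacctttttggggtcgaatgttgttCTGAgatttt
The boxes begin at bases 8 and 150 and are 136 bases apart. This order of letters, TGATGA followed by CTGA after 30 to 250 bases on the transcribed strand, was found in 4 of 82 members under 300 nt (4.88%). It was found in 47 of all 559 members (8.41%), in 36.8% of the 57 annotated snoRNA genes and in 0.508% of windows of 158 nt at the starts of protein-coding genes. Members and snoRNA genes were searched over their whole length. A window of 158 nt cannot hold the wider gaps, so its share is low by construction and is no matched comparison. Letters alone do not make a snoRNA, and the match is a description.

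A pair of overlapping members followed at SPNCRNA.510 (chromosome I, 3851006 to 3851107, + strand, 102 nt) and SPNCRNA.942 (287 nt), divergent from *ppc89*, which codes for a spindle pole body protein. SPNCRNA.510 had 302 and 676 reads in the IP, and 387 and 315 in the input. Its density of 3.05 ± 0.127 in the IP and 1.15 ± 0.0749 in the input was steady between replicates. SPNCRNA.942 had 579 and 1238 reads in the IP, and 537 and 434 in the input. The centred log2 ratio was −1.09 ± 0.10 for SPNCRNA.510 (adjusted p = 3.31e-05, limma) and −0.65 ± 0.09 for SPNCRNA.942 (adjusted p = 0.000526).

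SPNCRNA.515 (chromosome II, 3962690 to 3962794, + strand, 105 nt), convergent with *sdh8*, had 198 and 771 reads in the IP and 492 and 460 in the input. Its IP replicates, at 1.89 and 3.48 normalized reads per nt, lay farther apart as a ratio than those of the other 13 dense members. Its centred log2 ratio was −1.74 ± 0.24 (adjusted p = 0.000429, limma). SPNCRNA.242 (chromosome I, 4154360 to 4154694, + strand, 335 nt) had 845 and 2282 reads in the IP and 1069 and 869 in the input, with a ratio of −0.93 ± 0.13 (adjusted p = 0.000389). SPNCRNA.1444 (chromosome II, 1557726 to 1558047, − strand, 322 nt), which begins 131 nt after *rpl26*, a ribosomal protein gene, had 396 and 1082 reads in the IP and 787 and 572 in the input. Its ratio was −1.50 ± 0.13 (adjusted p = 2.06e-05). In all 3 regions the input density was above that of the median protein-coding gene by more than the spread of the replicates.

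SPNCRNA.893 (chromosome I, 3177931 to 3179269, + strand) is the exception in length, with 1339 nt. It had 1123 and 2512 reads in the IP, and 2372 and 1727 in the input, and a centred log2 ratio of −1.73 ± 0.09 (adjusted p = 7.79e-07, limma). Its reads are not spread over that length. SPNCRNA.219, which lies inside its 3′ part on the same strand and is 416 nt long, had 8 and 30 reads in the IP, and 0 and 1 in the input. The remaining 923 nt therefore hold 1115 and 2482 reads in the IP, and 2372 and 1726 in the input, in the part that follows the HomolD box printed above. SPNCRNA.219 itself was called higher in the IP (adjusted p = 0.043), on few reads and not after leaving out IP replicate 2 (0.219) or input replicate 1 (0.0939).

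**Figure D5:**
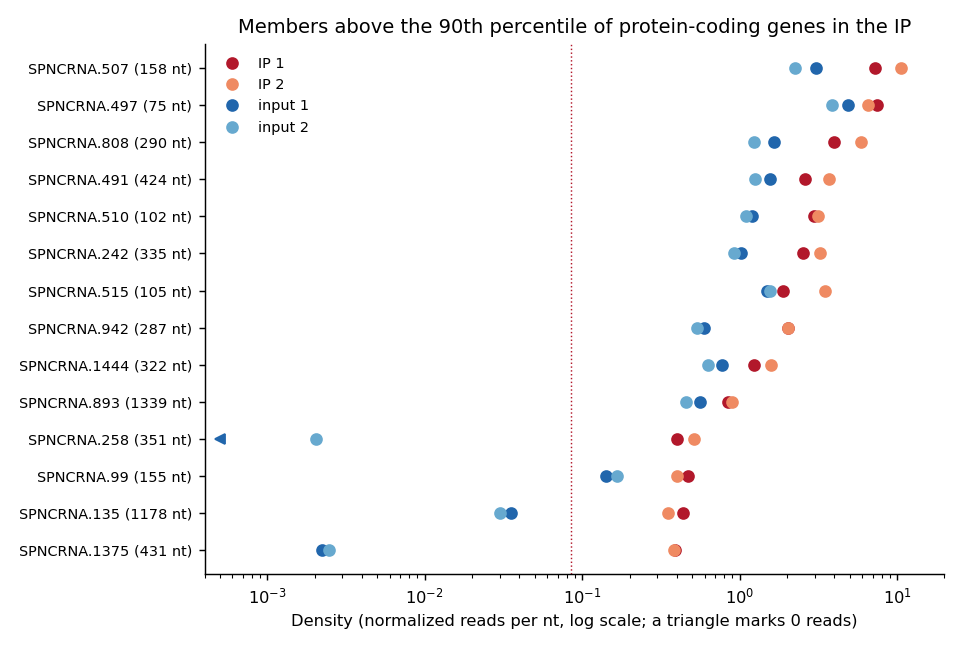
Density in each library (x axis, normalized reads per nt, log scale) of the 14 members denser in the IP than 90% of protein-coding genes, in order of mean IP density. Triangles mark 0 reads, and the dotted line is the IP density of the median protein-coding gene, 0.0853. In 11 of the 14 the input also lies above that line, while the inputs of SPNCRNA.258, SPNCRNA.1375 and SPNCRNA.135 lie below it.

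Known small RNAs were found among the members once the RefSeq annotation was matched. By locus tag, 503 of the 559 have a RefSeq entry, 496 of them with the same coordinates and strand. SPNCRNA.497 (chromosome II, 4239161 to 4239235, − strand, 75 nt) is snR48, a snoRNA inside *rps3*, a ribosomal protein gene. It had 560 and 1030 reads in the IP and 1151 and 815 in the input, including reads of *rps3* pre-mRNA, and a centred log2 ratio of −1.81 ± 0.10 (adjusted p = 7.79e-07, limma). SPNCRNA.530 (chromosome I, 1966483 to 1966635, − strand, 153 nt) is sno530. It had 28 and 88 reads in the IP and 128 and 100 in the input, with a ratio of −2.65 ± 0.22 (adjusted p = 1.51e-05), the lowest among free-standing members with 10 or more reads in each library. SPNCRNA.1483 (1152 nt), annotated in RefSeq as a snoRNA primary transcript and overlapping *snoZ30*, had 60 and 137 reads in the IP and 102 and 70 in the input, with a ratio of −1.37 ± 0.16 (adjusted p = 0.000188). All 3 were called lower. The 51 annotated snoRNA genes with 10 or more reads in each library had a median ratio of −1.53 and −1.10, centred per replicate.

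SPNCRNA.491 (chromosome III, 1360323 to 1360746, + strand, 424 nt) shares 397 nt with *ctp1-antisense-1*, a named ncRNA gene. It had 1104 and 3301 reads in the IP and 2092 and 1483 in the input, and the whole of *ctp1-antisense-1* had 1215 and 3549 in the IP and 2109 and 1497 in the input. Nearly all reads of the named gene, which is 2073 nt long, thus lie in the part that SPNCRNA.491 covers. The centred log2 ratio of SPNCRNA.491 was −1.34 ± 0.15 (adjusted p = 0.000135, limma). SPNCRNA.99 (chromosome I, 4434321 to 4434475, − strand, 155 nt), 2 nt after SPAC9E9.02, had 73 and 131 reads in the IP and 69 and 72 in the input, with a ratio of −1.0 ± 0.20 (adjusted p = 0.00428).

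One setting of the fit bore on these calls. Without limma's trend, SPNCRNA.507, SPNCRNA.808, SPNCRNA.942, SPNCRNA.515, SPNCRNA.242, SPNCRNA.491 and SPNCRNA.99 kept their ratio but missed the threshold, with adjusted p of 0.0645 to 0.172.

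At the other end, 3 free-standing members just after highly transcribed genes had abundant nascent RNA with almost no input. They were chosen for description after their values had been seen, as the free-standing members with the highest ratio. The sequences run from 100 bases before to 50 bases after the annotated start of each member, and the capitals mark the bases between the annotated end of the gene and the start of the member, which is all that separates the annotations.
SPNCRNA.258 after *rpl31* (chrI:5018622-5018771, + strand): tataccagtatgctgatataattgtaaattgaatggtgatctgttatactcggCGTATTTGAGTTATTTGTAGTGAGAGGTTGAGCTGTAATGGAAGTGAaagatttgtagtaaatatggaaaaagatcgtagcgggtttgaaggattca
SPNCRNA.1375 after *tef103* (chrII:625868-626017, − strand): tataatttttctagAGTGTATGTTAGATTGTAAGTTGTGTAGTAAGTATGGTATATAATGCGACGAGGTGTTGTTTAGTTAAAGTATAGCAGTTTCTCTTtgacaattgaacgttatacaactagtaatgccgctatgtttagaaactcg
SPNCRNA.110 after *rps21* (chrII:2084300-2084449, + strand): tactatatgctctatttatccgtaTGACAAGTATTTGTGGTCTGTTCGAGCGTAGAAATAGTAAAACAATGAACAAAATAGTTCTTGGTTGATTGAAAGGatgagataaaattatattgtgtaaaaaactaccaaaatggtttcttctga
The gaps are 47, 86 and 76 nt. *rpl31* and *rps21* code for ribosomal proteins and *tef103* for a translation elongation factor. SPNCRNA.258 (351 nt) had 141 and 382 reads in the IP, and 0 and 2 in the input. In replicate 1 its IP was at least 148-fold above the input on the deposited scale, taking 3 input reads as the floor. In replicate 2 it was 254-fold above, with an exact 95% interval of 69.8 to 2103 that covers counting error only. SPNCRNA.1375 (431 nt) had 168 and 350 reads in the IP, and 3 and 3 in the input, 176-fold (59.2 to 862) and 155-fold (52.6 to 755) more in the IP. All these folds are on the deposited scale and are not centred. On that scale the median protein-coding gene was itself higher in the IP, by 2.29 and 2.45 in log2 in replicates 1 and 2. SPNCRNA.110 (273 nt) had 55 and 105 reads in the IP, and 0 and 1 in the input. All 3 were called higher, with adjusted p of 5.53e-05, 2.17e-06 and 0.000225 in limma.

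The 42 members for which a gene on the same strand ends up to 300 nt before their start were a denser group, with median IP densities of 0.0318 and 0.0294, against 0.00685 and 0.00755 for the other 517. Without the read-sharing and the repeated members, 23 remained, with 0.0128 and 0.011, against 0.00549 and 0.00616 for 333. Their ratios went both ways. The group includes SPNCRNA.258, SPNCRNA.1375 and SPNCRNA.110 at high ratios and SPNCRNA.507, SPNCRNA.1444 and SPNCRNA.99 at low ones.

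With more reads in the input, the highest ratios lay on longer members. SPNCRNA.388 (chromosome II, 2115592 to 2117167, + strand, 1576 nt) begins 564 nt after *mat1-Mc*, a gene of the mating-type locus. It had 197 and 323 reads in the IP, and 16 and 15 in the input, and a centred log2 ratio of 2.48 ± 0.21 (adjusted p = 1.85e-05, limma). The read-sharing SPNCRNA.1459 (chromosome II, 1742555 to 1744043, − strand, 1489 nt) is *nam1* in RefSeq and shares 76 nt with *mlo3*, a factor of mRNA export. It had 478 and 914 reads in the IP, and 44 and 49 in the input, and a ratio of 2.34 ± 0.17 (adjusted p = 6.43e-06). Both had more nascent RNA for their input than the median gene in each replicate.

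Both of these members hold 4 copies of TTAAAC. In fission yeast, the RNA-binding protein Mmi1 recognises UNAAAC repeats, most often UUAAAC, in meiotic transcripts and brings them to degradation in growing cells. The sites of SPNCRNA.388 and SPNCRNA.1459 are shown as windows of 30 bases on the transcribed strand, with the motif in capitals and the position of its first base counted from the start of the member.
SPNCRNA.388, base 134 (chrII:2115713-2115742): tataaacatataTTAAACctcatcccaaat
SPNCRNA.388, base 351 (chrII:2115930-2115959): acccaacatgtaTTAAACattatcccccta
SPNCRNA.388, base 1122 (chrII:2116701-2116730): caaaaatcacatTTAAACttataccaatac
SPNCRNA.388, base 1400 (chrII:2116979-2117008): cagaccgcctccTTAAACagcaaccttacg
SPNCRNA.1459, base 358 (chrII:1743669-1743698): tagtatgcaagcTTAAACgctaccaagaag
SPNCRNA.1459, base 916 (chrII:1743111-1743140): cacgattgcattTTAAACtcgctgattgat
SPNCRNA.1459, base 965 (chrII:1743062-1743091): cttttgaaacttTTAAACcctagtcacttc
SPNCRNA.1459, base 1330 (chrII:1742697-1742726): tacgttcgtaccTTAAACcagtagtatctg
TTAAAC occurred 0.612 times per kb of member, in 203 members, against 0.439 per kb in protein-coding genes, 0.530 in unnamed antisense ncRNA genes, 0.450 in named ncRNA genes and 0.592 in XUTs without an antisense gene. The members are also richer in A and T, with a median GC content of 32.9%, against 36.7% in protein-coding genes, and the part of base composition in the motif counts was not tested. At least 1 TTAAAC was found in 20 of the 43 members called higher, in 10 of the 28 called lower and in 171 of the 462 tested. The members called higher are longer, with a median of 878 nt against 782 nt for those tested. The part of length in these counts was not tested.

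Other members with high ratios were named for their reads or their length. SPNCRNA.1443 (chromosome II, 1554843 to 1557638, + strand, 2796 nt), convergent with *rpl26*, had 95 and 188 reads in the IP and 28 and 18 in the input, with a centred log2 ratio of 1.06 ± 0.21 (adjusted p = 0.00405, limma). Of the read-sharing members, SPNCRNA.135 (1178 nt) lies wholly inside SPBC365.16 and had 515 and 875 reads in the IP and 131 and 99 in the input. Its ratio was 1.09 ± 0.12 (adjusted p = 0.000119), and without the trend its adjusted p was 0.0502. SPNCRNA.112 (461 nt), inside SPBC17D1.05, had 138 and 319 reads in the IP and 112 and 109 in the input. It lay on the other side, at −0.54 ± 0.15 (adjusted p = 0.0248), but not after leaving out IP replicate 1 (0.0676) or input replicate 2 (0.106).

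SPNCRNA.1296, SPNCRNA.1014 and SPNCRNA.1572 had ratios of similar size on fewer reads and did not pass. SPNCRNA.1296 (850 nt) had 25 and 73 reads in the IP and 9 and 4 in the input, with 1.17 ± 0.40 (adjusted p = 0.0608, and 0.0416 with the replicate number as a block). SPNCRNA.1014 (554 nt), divergent from *gwt1*, had 24 and 59 in the IP and 6 and 6 in the input, with 1.00 ± 0.38 (adjusted p = 0.0857).

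The longest members had few reads per nt. The longest is SPNCRNA.1164 (chromosome III, 966133 to 971255, + strand, 5123 nt), divergent from *gsf2*, a gene for a flocculin. It had 59 and 79 reads in the IP, and 9 and 8 in the input, a density of 0.00941 ± 0.00298 and 0.000558 ± 1.48e-06. Its centred log2 ratio was 1.41 ± 0.34 (adjusted p = 0.0122, limma), but leaving out IP replicate 1 gave 1.09 with an adjusted p of 0.225. SPNCRNA.111 (3776 nt), named *rse1* in RefSeq, had 79 and 170 reads in the IP and 55 and 46 in the input, with a ratio of −0.28 ± 0.17 (adjusted p = 0.269). SPNCRNA.672 (3403 nt), divergent from the DNA repair gene *rad15*, had 29 and 51 reads in the IP and 14 and 7 in the input, with 0.38 ± 0.36 (adjusted p = 0.483). SPNCRNA.1572 (2889 nt), before *gsf1*, had 17 and 36 in the IP and 4 and 2 in the input, with 1.27 ± 0.46 (adjusted p = 0.07).

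SPNCRNA.934 (2832 nt), divergent from *per1*, was the densest of the members of 2000 nt or more that are free-standing, with 131 and 216 reads in the IP and 85 and 48 in the input. Its ratio of −0.08 ± 0.19 did not pass the test (adjusted p = 0.801). Near the end of chromosome II, SPNCRNA.532 (878 nt) had 164 and 273 reads in the IP and 61 and 43 in the input, with 0.56 ± 0.16 (adjusted p = 0.0299). Leaving out IP replicate 1 raised that p to 0.292.

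The members farthest from any gene had no reads. SPNCRNA.484, SPNCRNA.485 and SPNCRNA.483 lie on chromosome III, 36849, 35040 and 28787 nt from the nearest protein-coding gene. All 3 had 0 reads in every library, and none of their 50-mers is unique. Whether they are transcribed could not be seen in reads that map to 1 place.

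Among the 139 members that share bases with a protein-coding gene, the level differed with the position on the gene, which also sets how much is shared. The 92 that cover the 5′ end of the gene had a median IP density of 0.0179, against 0.107 for their genes. The 18 that cover the 3′ end had 0.0268, against 0.0755 for their genes, and the 28 that lie inside a gene had 0.0582, against 0.0689. The median share of a member's length that lies on the gene was 6.48% at 5′ ends, 9.68% at 3′ ends and 100% inside a gene. Reads of members inside a gene are thus counted for the gene as well, and the densities of member and gene are not independent. Single members inside a gene still differed from it, from −11.8 on the log2 scale for SPNCRNA.226, without an IP read, to 1.82 for SPNCRNA.265. Of these 28, 14 were above the density of their gene. In the limma fit, 10 of 90 tested members at 5′ ends were higher and 6 lower, 7 of 26 inside a gene were higher and 3 lower, and 3 of 18 at 3′ ends were higher. Of all features in that fit, 9.21% were higher and 17% lower.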

How the data were processed

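NET-Seq reads of 2 IP and 2 input libraries of *exo2*Δ cells were analysed from 1 deposited table of 19343 entries. According to the submitters' processing notes, reads were mapped with Bowtie to ASM294v2. The authors kept uniquely mapping reads. The counting tool and the basis of the normalization factor are not given in the sources used here. The deposited values of IP replicate 1 are counts, with a whole number of reads for each feature. The deposited values of the other libraries are a signal, the reads times 1 factor per library, and the density is that signal per nt. Dividing by the smallest positive value gave whole reads for 100% of the values (tolerance 0.001). The 4 pooled columns were not used.

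The numbers of IP and input pair the libraries, since the labels say that both come from the same biological sample, and the replicate differences of IP and input correlated over 4644 genes with r = 0.152.

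IP and input were compared with limma 3.58.1 (R 4.3.3), with trend, on log2(normalized reads + 0.318), which understates the change of features with few reads, at an adjusted p of 0.05 over 8651 features. Centring subtracts from each library in limma its median log2 level over protein-coding genes, and from the ratios per replicate the median ratio of those genes, and the first gives values 0.12 lower. edgeR 4.0.16 and DESeq2 1.42.0 were run on the recovered reads as alternatives. The fit was also run on simulated data, in which all libraries had the proportions of the IP and only well-read features were changed. That run does not show how the fit performs for members with few reads. Densities per nt were averaged over replicates. Spearman's rho used log2(density + 0.000118).

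Named were the free-standing members with the 6 highest IP densities, the 6 highest input densities, the 5 highest and 5 lowest centred ratios with 10 or more reads in each IP library and in the summed input, the 4 longest, the 3 farthest from a gene, the densest of each orientation and length group, and the 4 densest read-sharing members. The members, lists and rules were chosen with earlier results of these data known. The RefSeq groups, the uniqueness of 50-mers, the boxes of snoRNAs, the overlapping members and all other named members were added after values were seen. Of 5119 coding sequences, 5113 run from ATG to a stop codon in whole codons at the table's coordinates in ASM294v3, from which sequences were read. Intervals and floors of 3 reads cover counting error only.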

Additional observations from a re-analysis of the deposited data

How the results depend on the processing

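Depth limited single members, since only 109 and 90 of the 559 had 10 or more reads in the inputs. With the replicate number as a block, 394 members were higher and 0 lower on the deposited scale, and 50 higher and 38 lower after centring; of the 39 named members tested, the block changed only the call of SPNCRNA.1296.

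On the deposited scale (399 higher, 0 lower), edgeR called 259 of 263 members higher, and 2 were lower with a pseudocount 10 times smaller, without a filter or without the trend. Leaving out 1 library gave 304 to 354 higher and 0 to 4 lower. After centring (43 higher, 28 lower), the higher calls numbered 20 with a pseudocount 10 times larger (4.33% of members tested, against 8.38% of all features), 23 without the trend (4.98%, against 2.52%) and 21 with DESeq2 (4.25%, against 4.09%). The lower calls numbered 299 with that pseudocount (64.7%, against 45.4%), 113 without a filter (20.2%, against 20.3%), 14 without the trend (3.03%, against 5.03%) and 18 with DESeq2 (3.64%, against 10.6%). Leaving out 1 library gave 25 to 52 higher and 27 to 47 lower. The larger pseudocount lowers the ratio of every feature with few reads by construction, and the median centred ratio of the members, −0.06, was 0.34 with the smaller and −1.19 with the larger one. It was −0.32 for free-standing members, and −0.18 and −0.003 in replicates 1 and 2. The median IP density, 0.00773, was 0.00489 for free-standing members, 0.00534 as a mean of log values and 0.0066 without members that share a XUT's strand. Chosen after seeing the data, members with fully unique 50-mers gave 0.00843 and leaving out the 10 densest gave 0.00752. The rule found 526 members with no antisense base allowed and 458 with XUTs counted as genes. SPNCRNA.219 reversed with the larger pseudocount, at −0.33, against 2.08. Of 546 values of named members under the alternatives, 489 kept their direction and call, 45 missed the threshold, 11 newly passed it and 1 reversed. Leaving out the trend changed 17 of these calls, the most among the alternatives run. No sample group was large enough for a test of outlying samples.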

Other observations

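The RefSeq descriptions divide the members into kinds that differ in level. Of the 503 members with an entry, 82 are noted as possible UTRs, and their median IP densities were 0.0235 and 0.022, with 0.00291 and 0.00253 in the input. All 82 had at least 1 read. The 360 members with no further description had 0.00594 and 0.00604 in the IP, and the 56 without an entry had 0.0126 and 0.0123. Of 30 members described as centromeric or near a centromere, where fission yeast keeps repeated heterochromatic DNA, 22 had no read in any library. Of 11 described as specific to a condition, 6 had no read.

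Single members of known loci lay at different levels. SPNCRNA.1325 and SPNCRNA.1326 are *fbp1-ot3* and *fbp1-ot2* in RefSeq, transcripts upstream of the glucose-repressed gene *fbp1*. SPNCRNA.1325 had 34 and 59 reads in the IP and 21 and 9 in the input, and its centred log2 ratio of 0.16 ± 0.35 did not pass (adjusted p = 0.786, limma). SPNCRNA.1326 had 0 reads in all 4 libraries. SPNCRNA.1696, *nam3* in RefSeq, had 236 and 368 reads in the IP and 89 and 59 in the input, with a ratio of 0.55 ± 0.16 (adjusted p = 0.0332), and 0.289 without IP replicate 1. It overlaps SPNCRNA.532, so the 2 share most of their reads. SPNCRNA.230 and SPNCRNA.361, *nam5* and *nam6*, had 0 reads in all 4 libraries and no unique 50-mer.

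A few members had more input than IP reads at low levels. SPNCRNA.1472 (chromosome II, 1877295 to 1878080, + strand, 786 nt) had 5 and 14 reads in the IP and 27 and 24 in the input, with a centred log2 ratio of −3.04 ± 0.40 (adjusted p = 0.000311). Among read-sharing members, SPNCRNA.1551, which shares 58 nt with *tfb5*, a subunit of the transcription factor TFIIH, had 161 and 391 reads in the IP and 17 and 5 in the input, with 3.15 ± 0.35 (adjusted p = 0.000124), and 0.054 without the trend. SPNCRNA.1504, which shares 25 nt with *gpa1*, the G protein of the pheromone response, had 79 and 119 in the IP and 4 and 4 in the input, with 2.84 ± 0.35 (adjusted p = 0.000217).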
